A study of Rattus norvegicus with 6 samples.

Results

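The miR-378 and miR-103/miR-107 miRNAs were compared between hearts of control rats and of rats with chronic colitis induced by dextran sodium sulfate (DSS), a polymer that injures the lining of the colon. The members were all array probes whose name carries the stem miR-378a, miR-378b, miR-103 or miR-107, on either arm of the hairpin. The rule found 8 of the 761 rat miRNAs on the array. Total RNA of 3 control hearts (numbers 9, 10 and 11) and 3 DSS hearts (13, 14 and 16) was hybridized to 6 one-color arrays. All animals were adult Sprague Dawley rats, which the study's methods describe as male littermates. The DSS rats drank 3% DSS for 5 days and then plain water for 9 days, in 4 cycles over 8 weeks, and the controls had no DSS. The samples are numbered, but the labels do not state that each number is a separate rat, so p-values measure the spread between these 6 samples, part of which may be technical.

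Both families are encoded inside genes of energy metabolism. miR-378a lies in an intron of Ppargc1b, which encodes a coactivator that promotes mitochondrial biogenesis and fat oxidation, and its 2 arms are known as regulators of mitochondrial metabolism. miR-103 and miR-107 lie in introns of the Pank genes, which encode pantothenate kinases, the first enzymes of coenzyme A synthesis, and are known for their influence on insulin sensitivity. Each hairpin is cut into a 5p and a 3p arm, and bases 2 to 8 of the arm that is loaded, the seed, select its target mRNAs.

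The annotation of the rat genome (RefSeq, GRCr8) placed the Mir378 gene at chr18:57128922-57128986 on the minus strand, inside the span of Ppargc1b on the same strand. Mir107 was at chr1:241750418-241750504 on the minus strand inside Pank1. Mir103a2 was at chr3:138963227-138963312 on the plus strand inside Pank2, and Mir103a1 was at chr10:20748474-20748559 on the plus strand inside Pank3. The table used here gives gene spans and not exons. Mir378b did not share the host of Mir378, since it was at chr5:10729798-10729881, inside the span of Ncoa2, which encodes another nuclear receptor coactivator. miR-378b is therefore a member by name and sequence and not by its host gene.

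The sequences that the probes target, as the array files give them, are shown 5′ to 3′ with the seed in capitals, because the families and the probes that may share a signal are defined by them.
rno-miR-378a-3p: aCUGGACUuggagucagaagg
rno-miR-378b: aGUGGACUuggagucagaagg
rno-miR-378a-5p: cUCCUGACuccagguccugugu
rno-miR-103-3p: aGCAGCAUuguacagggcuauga
rno-miR-107-3p: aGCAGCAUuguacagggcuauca
rno-miR-103-1-5p: gGCUUCUUuacagugcugccuugu
rno-miR-103-2-5p: aGCUUCUUuacagugcu
rno-miR-107-5p: aGCUUCUUuacaguguugccuugu
Of these 8 sequences, 5 had an entry in the RefSeq miRNA table and all 5 were identical to it. Counted from the 5′ end, miR-103-3p and miR-107-3p differed by the single change G22C, outside the seed, so both carried the seed GCAGCAU. miR-378a-3p and miR-378b differed by the single change C2G, which is inside the seed, so the seeds were CUGGACU and GUGGACU. The 2 arms of miR-378a had different seeds. No other miRNA on the array shared a seed with a member or lay within 3 edits of one. A probe for 1 member of such a near-identical pair may also bind the other, which cannot be told apart with these arrays.

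The 3 hairpins of the miR-103/miR-107 family are shown from RefSeq (GRCr8, strands as above) with the sequences of both arms in capitals, because only the 3p arm of each was detected.
Mir103a1: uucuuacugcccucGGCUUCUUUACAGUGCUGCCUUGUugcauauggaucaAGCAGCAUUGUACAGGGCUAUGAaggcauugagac
Mir103a2: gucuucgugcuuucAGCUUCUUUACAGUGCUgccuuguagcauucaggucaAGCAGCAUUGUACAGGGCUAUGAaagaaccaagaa
Mir107: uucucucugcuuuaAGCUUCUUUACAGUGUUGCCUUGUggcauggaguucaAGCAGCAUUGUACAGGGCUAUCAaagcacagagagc
Mir103a1 and Mir103a2 gave the same 3p arm, so the miR-103-3p probe cannot tell the copy in Pank3 from the copy in Pank2.

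Of the 8 probes, 5 were detected on all 6 arrays and 3 on none. A spot passed when it was brighter than the background by more than 3 SD of the empty spots and its pixels varied little, and a miRNA was detected when at least 2 of its 4 spots passed. miR-378a-5p, miR-378a-3p, miR-378b, miR-103-3p and miR-107-3p had all 4 spots passing on every array. The 5p arms miR-103-1-5p, miR-103-2-5p and miR-107-5p had 0 passing spots on every array. Their brightness above the background was between -0.435 and 21.6, and none of the 18 values exceeded 62.5% of the limit of its array. These arms were not detectable in control or DSS hearts, which leaves only the 3p arm of this family to compare. A change in them, if present, could not be seen here. The 5 detected probes all passed the filter for testing, detection on at least 3 of 6 arrays, without help from either group. Before normalization, DSS 13 stood apart from DSS 14 and DSS 16, on which all 5 probes were dimmer. Directions are therefore given after normalization to the other miRNAs by cyclic LOWESS, and scaled instead to 11 spike-in probes all 5 fold changes were above 0 with none called.

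miR-378a-5p, the 5p arm of the Ppargc1b miRNA, showed the largest difference of the 5. It was also the dimmest of them. Its brightness above the background was 111 on DSS 14 and 108 on DSS 16, where the detection limits were 59.3 and 52.4. Its normalized log2 signal was 9.13, 8.89 and 8.35 on control arrays 9, 10 and 11. It was 7.71, 7.37 and 7.56 on DSS arrays 13, 14 and 16. All 3 DSS hearts were below all 3 control hearts, and control 11 was the control nearest to them. The control mean was 8.79 ± 0.40 (SD, n = 3) and the DSS mean 7.55 ± 0.17 (SD, n = 3), which gave a log2 fold change of -1.24 (SE 0.25, 95% interval -1.83 to -0.65, limma adjusted p = 0.0151). Before normalization the SD of the controls was 0.069 and the log2 fold change -0.78. The part of normalization in the larger value was not tested. After normalization DSS hearts thus had 0.423 of the control signal. Without DSS 16 the change was -1.18 and the adjusted p rose to 0.0608, while it stayed between 0.0164 and 0.0437 when any other array was left out.

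miR-378a-3p, the other arm of the same hairpin and the one usually regarded as the main product, differed less and did not pass the test. Its normalized log2 signals were 11.21, 11.32 and 10.86 in controls and 10.70, 10.80 and 10.43 in DSS hearts. The 2 groups did not overlap, but the lowest control and the highest DSS heart were close. The mean was 11.13 ± 0.24 (SD, n = 3) against 10.64 ± 0.19 (SD, n = 3), a log2 fold change of -0.49 (SE 0.20, 95% interval -0.98 to 0.0013, limma adjusted p = 0.0857).

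miR-378b, with 1 base changed in the seed, had signals of 10.98, 11.02 and 10.57 in controls and 10.43, 10.57 and 10.17 in DSS hearts. DSS 14 reached the level of control 11, so the groups overlapped. Its log2 fold change was -0.47 (SE 0.21, 95% interval -0.96 to 0.032, limma adjusted p = 0.0996).

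miR-103-3p fell in DSS hearts. Its normalized log2 signals were 10.39, 10.53 and 10.34 in controls and 9.87, 10.03 and 9.81 in DSS hearts. Every DSS heart lay below every control, and the hearts of each group were close to each other, with SDs of 0.10 and 0.11 (n = 3 each). The log2 fold change was -0.52 (SE 0.17, 95% interval -0.91 to -0.12, limma adjusted p = 0.0393), or 0.699 of the control signal. This call did not hold when any 1 array was left out, since the adjusted p was then between 0.0628 and 0.164 with changes of -0.67 to -0.34.

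miR-107-3p, which differs from miR-103-3p near the 3′ end only, had almost the same values. Its signals were 10.41, 10.59 and 10.32 in controls and 9.96, 10.09 and 9.82 in DSS hearts, again without overlap. The log2 fold change was -0.48 (SE 0.17, 95% interval -0.90 to -0.068, limma adjusted p = 0.0558), just on the other side of the threshold of 0.05.

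**Figure D1:**
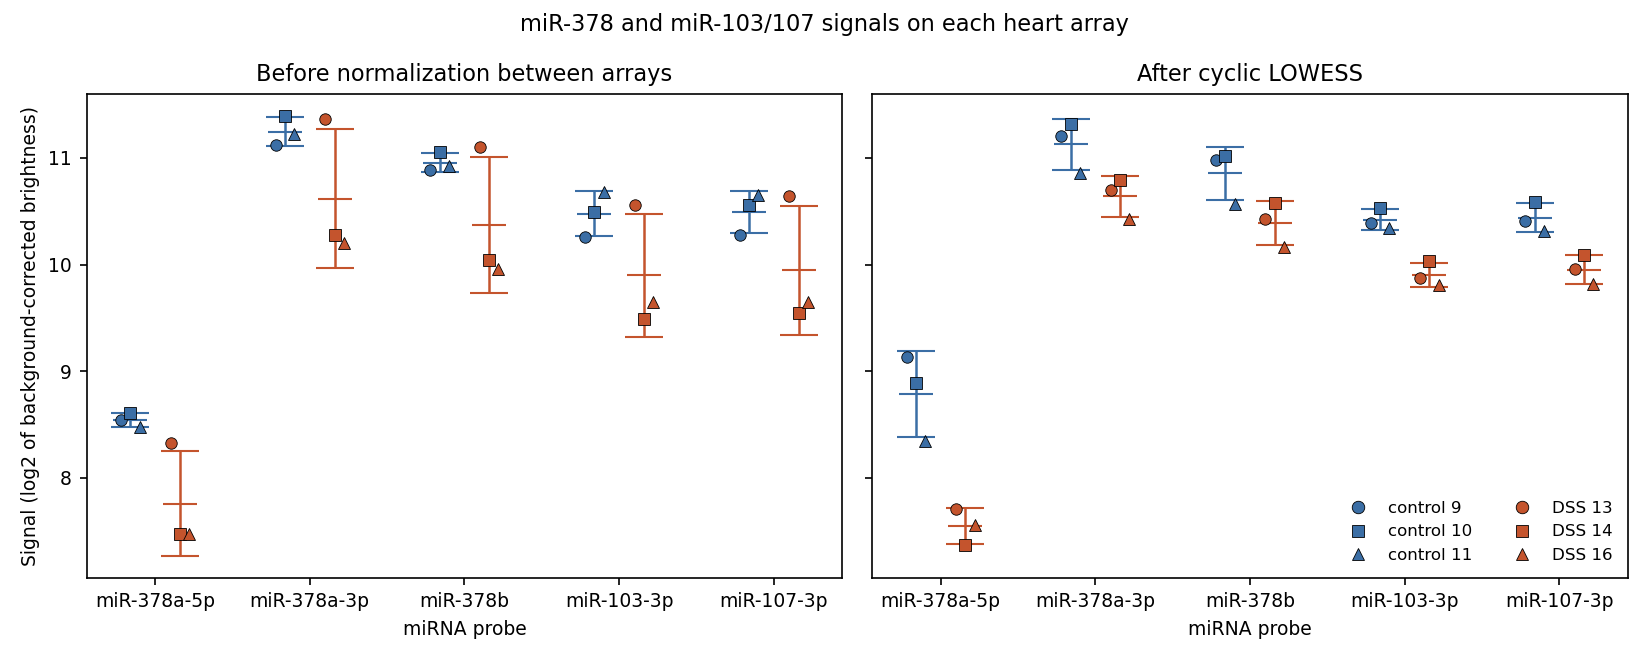
Signal of the 5 detected probes on each array, as log2 of the background-corrected brightness, before (left) and after (right) cyclic LOWESS. Points are single arrays, control in blue and DSS in orange, and bars give the mean ± SD of 3 arrays. On the left DSS 13 sits at or near the control level for each probe and DSS 14 and DSS 16 about 1 log2 unit lower, and on the right the 3 DSS arrays lie together below the controls, except for miR-378b, where DSS 14 reaches control 11.

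In all, 2 of the 5 tested probes were called and both were lower in DSS hearts. All 5 fitted changes were below 0 with cyclic LOWESS and above 0 with the 11 spike-in probes. The median with LOWESS was -0.49, against -0.064 over the 282 miRNAs tested. Calls were common on these arrays, with 139 of 282 miRNAs (49.3%) called in either direction, 80 (28.4%) lower and 59 (20.9%) higher. The signals of all 3 DSS hearts lay below all 3 controls for 4 of the 5 probes, and for 98 of 282 miRNAs (34.8%). With 5 probes, 2 pairs of which are nearly identical in sequence, these counts do not set the members apart from other miRNAs. In whole hearts, fewer cells of a type and less miRNA per cell cannot be told apart.

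Before normalization the arrays did not separate in this way. The log2 signal of miR-103-3p was then 10.26, 10.50 and 10.68 in controls, 10.56 in DSS 13, and 9.49 and 9.65 in DSS 14 and DSS 16. miR-378a-3p had 11.12, 11.40 and 11.22 in controls, 11.37 in DSS 13, and 10.28 and 10.21 in DSS 14 and DSS 16. DSS 13 was thus among the controls for both, while the other DSS arrays were lower. miR-378a-5p was the exception, with 8.54, 8.61 and 8.47 in controls and 8.33, 7.48 and 7.48 in DSS 13, DSS 14 and DSS 16, so that all DSS hearts were lower before normalization as well. None of the 5 was called without normalization, with log2 fold changes of -0.58 for miR-103-3p, -0.55 for miR-107-3p, -0.63 for miR-378a-3p, -0.78 for miR-378a-5p (limma adjusted p = 0.0659) and -0.59 for miR-378b.

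The control probes moved between the groups too. The mean log2 signal of 11 spike-in calibration probes, the series whose names end in 3P, was 10.83 ± 0.13 in control arrays and 9.88 ± 0.55 in DSS arrays (SD, n = 3 each), a difference of -0.95. The 6 probes for 5S ribosomal RNA differed by -0.42, while the median of the 282 tested miRNAs differed by 0.14 in the other direction. The mean of the 5 detected members differed by -0.63. The member signals without normalization were therefore lower by less than the 3P spike-in probes and by more than 5S rRNA. The part of array handling or RNA input in these differences was not tested, and the sources used here do not state how much spike-in was added.

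The choice of scaling accordingly set the size of the change and, for the spike-in probes, its direction. Scaled to the 5S probes, the log2 fold changes were -0.16, -0.13, -0.21, -0.36 and -0.16 for miR-103-3p, miR-107-3p, miR-378a-3p, miR-378a-5p and miR-378b, and none was called. Scaled to the 11 spike-in probes, all 5 were above 0, from 0.17 for miR-378a-5p to 0.40 for miR-107-3p, and none was called. Under all 43 spike-in probes all 5 were below 0 again, from -0.33 to -0.093, but only 19 of the 43 were detected on all arrays. Scaled to these 19, miR-103-3p, miR-107-3p, miR-378a-3p and miR-378b were above 0, at 0.16, 0.18, 0.10 and 0.15. miR-378a-5p was then at -0.050. The sign thus depended on which spike-in probes were used, and the 43 include probes that were not detected on every array. Quantile normalization gave -1.10 for miR-378a-5p and -0.87 to -0.70 for the other 4, and called all 5. The same scalings moved the median of all tested miRNAs to 0.78 with 5S, to 1.31 with the 11 spike-in probes and to 0.12 with quantiles. The calls over all 282 miRNAs moved with it, from 80 lower and 59 higher to 14 lower and 129 higher with 5S and to 10 lower and 168 higher with the 11 spike-in probes. Against that median the members were lower by 0.42 with cyclic LOWESS and by 0.94 with 5S, with the spike-in probes or without normalization. The last values are equal because these scalings shift every probe of an array alike.

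**Figure D2:**
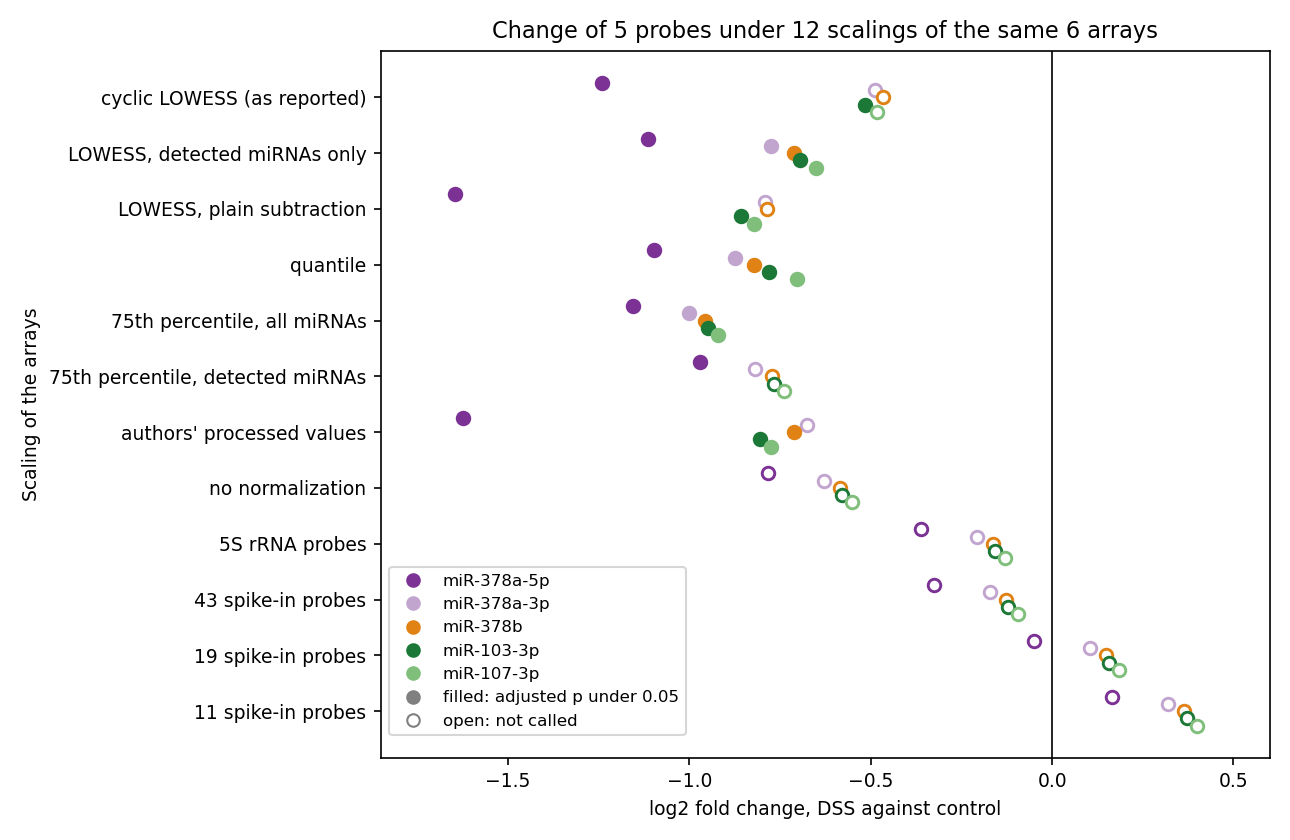
Log2 fold change of the 5 detected probes, DSS against control, under 12 ways of scaling the same 6 arrays, with filled points called at an adjusted p under 0.05 and open points not called. Points lie left of 0 under the scalings that rest on the miRNAs, on 5S rRNA or on all 43 spike-in probes and without normalization, and right of 0 under the 11 spike-in probes. Under the 19 spike-in probes detected on every array only miR-378a-5p is left of 0.

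The authors' processed values, which are linear signals after their own background subtraction and LOWESS filter, gave the same direction. miR-378a-5p was at 570, 424 and 270 in controls and at 154, 83 and 100 in DSS hearts. On the scale of log2(value + 32) this was a change of -1.63 (limma adjusted p = 0.00889). miR-103-3p was at 1562, 1578 and 1332 in controls and at 878, 723 and 924 in DSS hearts, and miR-107-3p at 1514, 1603 and 1283 against 900, 722 and 914. miR-378a-3p was at 2561, 2734 and 1922 against 1736, 1343 and 1386, and miR-378b at 2271, 2192 and 1593 against 1369, 1118 and 1142. No member's groups overlapped in these values. On that scale miR-103-3p, miR-107-3p and miR-378b were also called, and miR-378a-3p was just short of the threshold (limma adjusted p = 0.0504).

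The 2 arms of miR-378a come from 1 hairpin, so their difference within an array was compared between the groups, which does not depend on a shift common to all probes. The absolute size of such a difference says nothing on amounts, since each probe has its own brightness per molecule. After cyclic LOWESS, miR-378a-3p minus miR-378a-5p was 2.08, 2.43 and 2.51 in controls and 2.99, 3.42 and 2.87 in DSS hearts. The difference was larger in every DSS heart than in every control, by 0.75 on the log2 scale (2-sided exact permutation test, p = 0.1). This is the smallest p that 20 arrangements of 6 arrays allow, so the design cannot reach 0.05, and after adjustment over the 10 pairs of members it was 0.25.

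Cyclic LOWESS bends bright and dim probes differently, and the 2 arms differ in brightness, so the comparison was repeated on unscaled arrays. With plain background subtraction and no scaling, the difference was 2.78, 3.04 and 2.97 in controls and 3.30, 3.46 and 3.37 in DSS hearts. The groups again did not overlap, and the change was 0.44 (2-sided exact permutation test, p = 0.1). With normexp, which keeps an offset of 50 that compresses dim probes, and no scaling, the groups overlapped and the change was 0.15 (2-sided exact permutation test, p = 0.4). The lower 5p signal relative to the 3p arm was therefore present in each of these versions in the mean, at sizes from 0.15 to 0.75.

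miR-378a-5p shifted in the same way against the other 3 detected members. After cyclic LOWESS, miR-103-3p minus miR-378a-5p changed by 0.72, miR-107-3p minus miR-378a-5p by 0.76 and miR-378a-5p minus miR-378b by -0.77 (2-sided exact permutation tests, p = 0.1 each). With normexp and no scaling the same changes were 0.21, 0.23 and -0.20 (2-sided exact permutation tests, p = 0.3, 0.3 and 0.1). The pairs of near-identical sequences stayed together, which cannot be told apart from probes that bind both miRNAs of a pair. miR-103-3p minus miR-107-3p was between -0.082 and 0.023 on all 6 arrays and its mean changed by -0.033 (2-sided exact permutation test, p = 0.4). miR-378a-3p minus miR-378b was between 0.22 and 0.30 on all 6 arrays and its mean changed by -0.021 (2-sided exact permutation test, p = 0.4). The 4 brighter members, which are made up of these pairs, moved together, their mean differences changing by 0.050 at most.

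**Figure D3:**
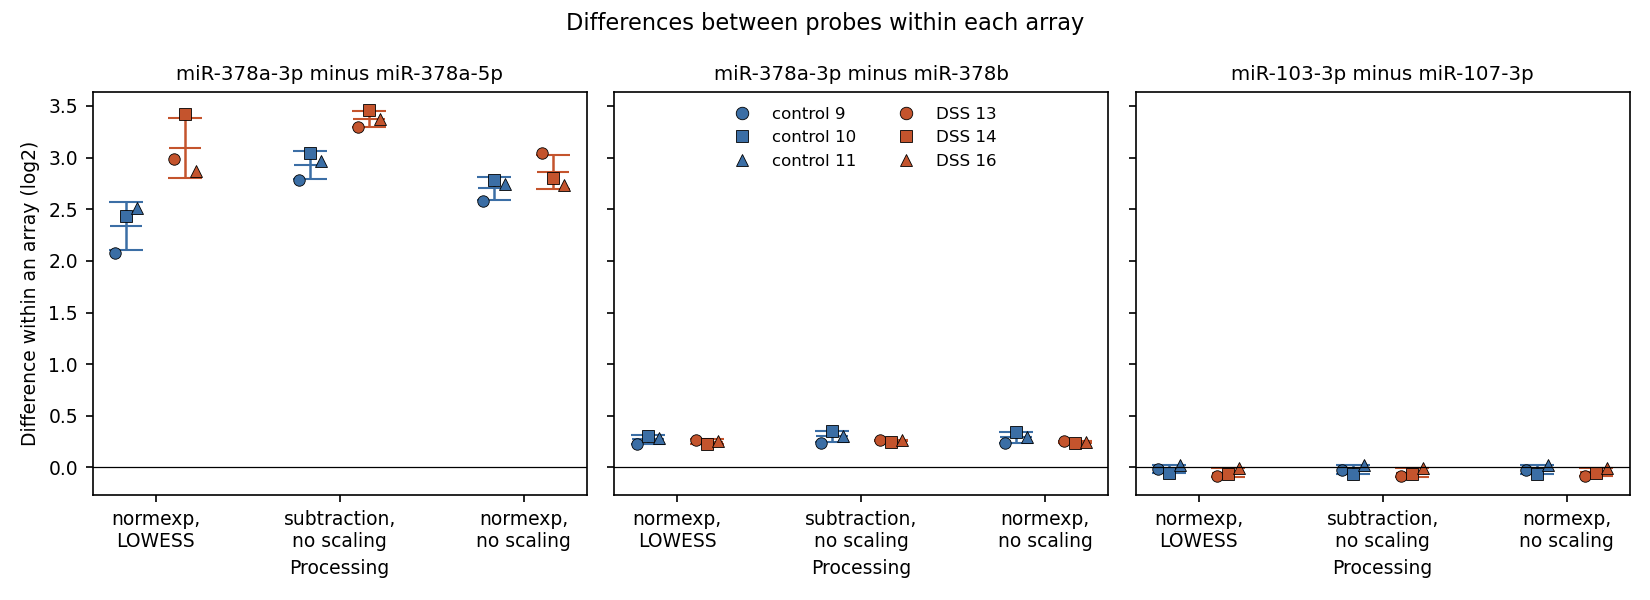
Log2 difference between 2 probes within each array for the arms of miR-378a (left), miR-378a-3p and miR-378b (middle), and miR-103-3p and miR-107-3p (right), under 3 ways of processing. Points are arrays and bars give the mean ± SD of 3 arrays. The miR-378a arms are further apart in each DSS array than in each control under the first 2 ways and overlap under the third, while the near-identical pairs differ little between the groups.

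The likeness of patterns was measured as the root mean square difference over the 6 arrays of log2 signals centered on their mean. miR-378a-3p and miR-378b differed by 0.0294 and miR-103-3p and miR-107-3p by 0.0356, whereas miR-378a-5p differed by 0.433 to 0.455 from the other members. Outside the families, miR-221-3p was the nearest to miR-378a-3p (0.0586), miR-378b (0.0788) and miR-107-3p (0.0792), with a log2 fold change of -0.50 (limma adjusted p = 0.0669). For miR-378a-3p and miR-378b the next was miR-222-3p, and for miR-103-3p and miR-107-3p the other of the nearest 2 was miR-342-3p. miR-378a-5p was nearest to miR-345-5p (0.135), which fell by 1.30, and miR-133a-5p (0.156), which fell by 1.08. With the 11 spike-in probes miR-221-3p, miR-222-3p, miR-342-3p and miR-345-5p turned above 0, like the members, at 0.71, 0.79, 0.69 and 0.30. miR-222-3p was called higher under that scaling (limma adjusted p = 0.0499), whereas no member was called. The likeness is a description, since all these points share 6 arrays and 1 normalization, and near-identical members may share signal.

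The opposite strand of the Mir378 locus is also on the array. Mir3557 lies at chr18:57128900-57129012 on the plus strand, across Mir378, and its arms are antisense to those of miR-378a. These probes were looked up after the values of the members were known.
rno-miR-378a-5p: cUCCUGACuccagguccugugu
rno-miR-3557-3p: aCACAGGAccuggagucaggag
rno-miR-3557-5p: gCCUUCUGacuccaaguccagu
miR-3557-3p was the exact reverse complement of miR-378a-5p over 22 bases, and miR-3557-5p complemented all 21 bases of miR-378a-3p. Both were dim. miR-3557-3p had normalized log2 signals of 6.75, 6.79 and 6.73 in controls and 6.77, 6.91 and 6.87 in DSS hearts, and the groups overlapped. It was detected in 0 of 3 controls and all 3 DSS hearts, so it passed the filter through the DSS group alone and no test of it is given. miR-3557-5p had 6.54, 7.04 and 7.00 in controls, 2 of them detected, and 6.78, 6.71 and 6.28 in DSS hearts, 1 of them detected. Its groups overlapped too, and at this brightness no comparison with the change of miR-378a-5p was made.

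miR-103 and miR-107 belong to the miR-15/miR-107 group, which shares the letters AGCAGC at its 5′ end and is known for targets in cell cycle and metabolism. In miR-103-3p and miR-107-3p the letters start at base 1, and in the others at base 2. They stood at 1 of these places in 9 of the 761 miRNAs of the array (1.18%), and these 9 were the group. For comparison with the members above, the sequences of the 2 group members with the largest fold changes are shown with the seed in capitals.
rno-miR-322-5p: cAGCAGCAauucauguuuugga
rno-miR-16-5p: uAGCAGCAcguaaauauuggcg
Of the other 7, miR-503-5p was not detected and 6 were tested. miR-322-5p fell by 1.84, miR-16-5p by 1.58, miR-195-5p by 1.44 and miR-497-5p by 0.99 on the log2 scale (limma adjusted p = 0.0229, 0.0180, 0.0170 and 0.0182). miR-15a-5p had a log2 fold change of -1.44 that did not pass (SE 0.53, limma adjusted p = 0.0597), and its groups overlapped. miR-15b-5p had one of 0.78 (SE 0.38, limma adjusted p = 0.121). The group without miR-103-3p and miR-107-3p thus had 4 of 6 called lower and a median of -1.44, beside 28.4% and -0.064 over all miRNAs tested. Nearer to 0 than all of these lay the fitted changes of miR-103-3p and miR-107-3p, a difference for which no test was made. Scaled to the 11 spike-in probes, the median of the 8 tested members of the whole group was -0.060, with 4 of 8 fitted lower, none called lower and 1 called higher. With 5S scaling none of the 8 was called. Of the whole group 5 were called lower, which became 3 without control 11, 1 without DSS 14 and 0 without DSS 16.

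**Figure D4:**
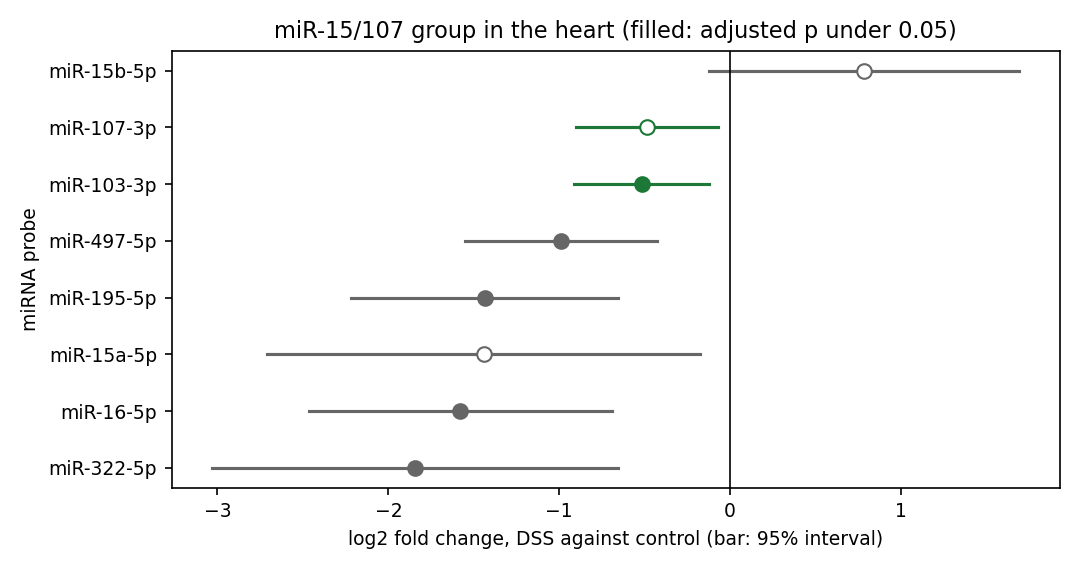
Log2 fold change of the 8 tested members of the miR-15/miR-107 group, DSS against control, with 95% intervals from limma, miR-103-3p and miR-107-3p in green and the others in grey. Filled points were called at an adjusted p under 0.05. All but miR-15b-5p lie left of 0, and the green points, at -0.52 and -0.48, are the nearest to 0 on that side.

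Other miRNAs known for roles in metabolism were compared from a list of 16, of which 9 were tested. Of these, 8 fell and miR-143-3p did not pass (log2 fold change -0.47, limma adjusted p = 0.0910). The 8 are not independent, since they include miR-29a-3p, miR-29b-3p and miR-29c-3p of 1 family and the related miR-27a-3p and miR-27b-3p. For miR-29b-3p the groups overlapped. The median of the 9 was -1.20, beside 28.4% called lower and a median of -0.064 over all tested. The 8 became 3 without control 11 and 0 without DSS 14 or without DSS 16. The largest changes were in miR-29c-3p, of a family known to repress collagens and insulin signaling, at -2.74, and miR-499-5p, from an intron of the slow myosin gene Myh7b, at -2.09. Neither miR-122-5p, a liver miRNA, nor miR-33-5p, a regulator of cholesterol export, was detected on enough arrays. With the 11 spike-in probes, 2 of the 9 were called lower and the median was -0.48.

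The members were also set beside 20 other miRNAs known to lie in introns of protein-coding genes. Of these, 17 were tested, 9 fell, 1 rose and the median was -0.86, beside 28.4% called lower, 20.9% called higher and a median of -0.064 over all tested. Without DSS 14 only 1 was called, lower, and without DSS 16 none. The largest change was in miR-30e-5p, which lies in an intron of Nfyc, at -2.32. With the 11 spike-in probes the median turned to 0.42, with 3 called higher and 2 called lower. The mRNA of the host genes was not measured on these arrays.

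Markers of the tissue and of other cells moved between the groups as well. The muscle miRNAs miR-133a-3p, miR-133b-3p, miR-499-5p and miR-1-3p were detected on all 6 arrays, with miR-1-3p higher by 3.11 and miR-499-5p lower by 2.09 in DSS hearts, and the cardiac marker miR-208a-3p was detected on 1 array. The mean normalized log2 signal of these 5 was between 11.60 and 12.35 in controls and between 11.75 and 11.97 in DSS hearts. Of 6 leukocyte markers 4 were tested. miR-150-5p rose by 1.59 and miR-146a-5p by 1.42 on the log2 scale, while miR-223-3p fell. miR-142-3p and miR-142-5p were detected on 1 array each. miR-155-5p was also called higher, but it was dim and detected on only 3 of 6 arrays. Its control signals of 6.32, 6.19 and 6.19 were at the level of undetected probes, against 6.60, 7.29 and 6.77 in DSS hearts. No weight is put on that call. The mean of the 6 leukocyte markers was between 8.08 and 8.36 in controls and between 8.37 and 8.56 in DSS hearts. Of 4 erythroid markers miR-451-5p fell by 2.53 and miR-144-5p by 0.94, miR-486 rose by 2.36, and miR-144-3p was detected on no array. miR-144-5p was detected on only 3 of 6 arrays. Its mean normalized log2 signal of 6.13 in DSS hearts was near the 6.16 of the undetected miR-103-1-5p there. The size of its fall could therefore not be measured, and no weight is put on it. The mean of the 4 erythroid markers was between 8.37 and 8.83 in controls and between 8.05 and 8.45 in DSS hearts. Of 4 fibroblast and smooth muscle markers, miR-145-5p and miR-199a-3p fell and miR-214-3p rose, and of the endothelial pair miR-126a-3p fell by 1.28 and miR-126a-5p had a log2 fold change of -1.21 (limma adjusted p = 0.237). With the 11 spike-in probes miR-223-3p, miR-144-5p, miR-199a-3p and miR-126a-5p turned above 0, and no leukocyte, fibroblast, smooth muscle or endothelial marker was called lower. Without DSS 16 none of these markers was called. Without DSS 14 no fibroblast, smooth muscle or endothelial marker was called. No leukocyte marker was called without control 9, and no endothelial marker without control 11. The part of a changed mix of cells in the lower miR-378 and miR-103/miR-107 signals was not tested.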

How the data were processed

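For each of the 6 arrays the authors deposited scanner intensities, which per the file headers are a median density and its SD for every spot, on a linear scale with the background included. The authors also deposited 1 table of processed intensities after background subtraction and a LOWESS filter. Groups came from the labels. Intensities were corrected with normexp (offset 50), averaged over the 4 spots as log2 values, and normalized between arrays by cyclic LOWESS on 761 miRNAs (span 0.7, 3 iterations). For detection, the background was taken from the dimmest 25% of miRNA spots as their median, and the spot CV limit was 0.5. limma 3.58.1 in R 4.3.3 tested 282 miRNAs, with Benjamini-Hochberg adjustment over all of them. The number of arrays limits the precision. Pairs of members were compared by exact permutation. The steps were tested on simulated data. Changes there went up and down equally and the brightness shifts of arrays were random, so a shift between the groups was not covered. The miRNAs named were all members, miRNAs near them in sequence, the miR-15/miR-107 group, the 2 largest changes of each other list and the 2 nearest patterns. Members and lists were chosen with earlier results of these data known. Alternatives covered background, scaling, detection, spots, test and each array left out. Python 3.11.15 with matplotlib 3.10.9 drew the figures.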

Additional observations from a re-analysis of the deposited data

How the results depend on the processing

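No paired analysis was made, because the labels do not state any link between a control heart and a DSS heart. A block for slide or scan, named beforehand, was left out for want of either in the files. The other 23 alternatives were run, and 3 scalings were added after seeing the data. Of 130 recomputed fold changes of the 5 members, 9 turned above 0, all with spike-in scaling. With the 11 probes these were 0.37 for miR-103-3p, 0.40 for miR-107-3p, 0.32 for miR-378a-3p, 0.17 for miR-378a-5p and 0.36 for miR-378b. With the 19 probes detected on all arrays they were 0.16, 0.18, 0.10 and 0.15 for miR-103-3p, miR-107-3p, miR-378a-3p and miR-378b, while miR-378a-5p was at -0.050.

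The number of members called, 2 as reported, was 5 with quantile normalization, with the 75th percentile of all miRNA probes and with LOWESS fitted on miRNAs detected on all arrays. It was 4 with the authors' processed values as log2(value + 32) and with array weights. It was 1 with the 75th percentile of detected miRNAs, with testing only of miRNAs detected on all 6 arrays and with a detection limit of 5 SD. It was 0 without normalization, with plain subtraction and no normalization, with 5S rRNA, with each spike-in set (11, 19 or 43 probes) and in the methods' t-test after Benjamini-Hochberg adjustment, which gave an unadjusted p under 0.05 for 3 members and 155 of all 282 miRNAs. Without 1 array it was 0 to 1, with 0 without DSS 16 and otherwise miR-378a-5p alone.

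The number of all miRNAs called, 139 as reported, was 74 when all 761 probes were tested, where more tests share the adjustment, and 0 in the methods' t-test. Without 1 array it was 0 to 147. It was 77 without control 9, 87 without control 11, 65 without DSS 14, and 0 without DSS 16, where limma gave 131 at an unadjusted p under 0.05. The cause was not tested.

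Of the other named miRNAs, 11 turned above 0 with the 11 spike-in probes, at 0.38 for miR-497-5p, 0.24 for miR-126a-5p, 0.30 for miR-144-5p, 0.22 for miR-223-3p, 0.19 for miR-143-3p, 0.10 for miR-133b-3p, 0.0089 for miR-199a-3p, 0.30 for miR-345-5p, 0.71 for miR-221-3p, 0.79 for miR-222-3p and 0.69 for miR-342-3p. With the 19 probes, 8 did, at 0.17 for miR-497-5p, 0.025 for miR-126a-5p, 0.085 for miR-144-5p, 0.0028 for miR-223-3p, 0.085 for miR-345-5p, 0.50 for miR-221-3p, 0.57 for miR-222-3p and 0.47 for miR-342-3p. For miR-221-3p, miR-222-3p and miR-342-3p the values were 0.19, 0.26 and 0.16 with 5S and 0.22, 0.29 and 0.20 with all 43 spike-in probes. miR-133b-3p was between -0.90 and 0.039 without 1 array, above 0 without DSS 13.

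The within-array differences were recomputed under 12 of the alternatives only. The 4 that involve miR-378a-5p kept their direction under each of these. Without 1 array they ranged from 0.38 to 0.95 for miR-378a-3p minus miR-378a-5p. Of the 6 small differences between the other members, miR-103-3p minus miR-107-3p kept its sign, and 5 changed it. miR-103-3p minus miR-378a-3p turned to 0.052 without normalization, 0.093 with quantiles and 0.035 with plain subtraction and no normalization, and was -0.14 to 0.066 without 1 array. miR-103-3p minus miR-378b turned to 0.0074 without normalization and 0.039 with quantiles, and was -0.15 to 0.050 without 1 array. miR-107-3p minus miR-378a-3p turned to -0.032 with plain subtraction, -0.099 with the authors' processed values and -0.024 with the median of spots, and was -0.087 to 0.081 without 1 array. miR-107-3p minus miR-378b turned to 0.034 without normalization, 0.12 with quantiles and 0.024 with plain subtraction and no normalization, and was -0.093 to 0.065 without 1 array. miR-378a-3p minus miR-378b turned to 0.038 with the authors' processed values, and was -0.086 to 0.0037 without 1 array.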
